A study of Mus musculus with 18 samples.

Results

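The complement genes described here were chosen as a fixed list of 9 of the 34509 gene symbols in the deposited table that holds B6 and NZW: C1qa, C1qb, C1qc, C3, C3ar1, Cfi, Cfb, Cd59a, and Serping1. Each symbol was carried by 1 probe of the 46643 probes of that table. By a shared search key, 5 of these probes (C1qa, C1qc, C3, Cfi, and Serping1) were matched to the 46147 probes of the table in which BALB/C, DBA1, and 129/svj were deposited. The other 4 probes (C1qb, C3ar1, Cfb, and Cd59a) were read in B6 and NZW only.

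RNA of the kidney cortex had been measured on 18 Illumina mouse BeadChip arrays from 15 mice aged 2 months, 3 mice of each of 5 inbred strains. All of the mice had received antibody against the glomerular basement membrane (anti-GBM), which induces glomerulonephritis in susceptible strains. The labels call B6 and BALB/C resistant, and DBA1, 129/svj, and NZW sensitive. Mice without the antibody were not analysed here, and baseline strain differences cannot be told apart from unlike responses to the antibody. The labels do not give the time between challenge and sampling.

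Complement is a cascade of plasma proteins that marks targets for clearance, recruits leukocytes, and can lyse cells. The classical pathway starts when C1q, built from the products of C1qa, C1qb, and C1qc, binds antibody that is held on a surface, such as antibody deposited along the glomerular basement membrane. All routes of activation meet at the cleavage of C3, and the alternative pathway amplifies that step through factor B. Regulators such as factor I, CD59, and the C1 inhibitor limit the cascade at different steps. The liver makes most of the circulating complement, macrophages are a main source of C1q, and kidney tubule cells can make C3 and factor B.

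Array medians ran from 81.1 to 89.8 signal units in the table of B6 and NZW and from 118.5 to 152 in the other table, with 30.5% to 36.4% of probes detected per array. The tubule gene Slc34a1, which encodes the phosphate transporter of the proximal tubule, was detected in all 15 mice, with log2 normalized signals of 13.29 to 14.75. Of 6 hepatocyte genes, Fgb was detected in none of the 15 mice and Alb, read in B6 and NZW, in none of 6. The 3 that were tested in B6 minus NZW were Apoa1 (-0.13, adjusted p = 0.46), Ttr, which was lower in B6 (-0.90, adjusted p = 0.00454), and Serpina1a. Serpina1a was detected in 3 B6 mice and no NZW mouse and entered the test through the B6 mice alone. The member probes were read on 13 to 61 beads an array (median 35.5). A second array had been run for mouse 1 of BALB/C, DBA1, and 129/svj, and over the 15 pairs of member values the repeat differed from the first array by a median of 0.12 on the log2 scale, and by at most 0.66, for C1qc.

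Promoter sequences from RefSeq were found for 5 of the 9 genes (C1qb, C1qc, C3, C3ar1, and Cd59a). The neighbouring genes C1qb and C1qc, which lie beside C1qa on chromosome 4, and C3, which varied most of the 9 between the B6 mice, are shown with the 250 bases before the transcription start. Capitals mark matches to the motifs searched on both strands, which were GAGGAA (the core bound by PU.1 and other ETS factors), TTCNNNGAA (STAT), TTGCNNAA (C/EBP), GAAANNGAA (a core of the interferon-stimulated response element), and GGGANTTTC (a form of the NF-kB site).
C1qb (GRCm38.p6 chr4:136886201-136886450, minus strand): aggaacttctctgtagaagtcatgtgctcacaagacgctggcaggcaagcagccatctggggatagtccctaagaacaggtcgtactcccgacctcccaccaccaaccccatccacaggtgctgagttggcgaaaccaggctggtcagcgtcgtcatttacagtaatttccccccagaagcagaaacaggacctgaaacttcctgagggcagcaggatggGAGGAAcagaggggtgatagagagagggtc
C1qc (GRCm38.p6 chr4:136892915-136893164, minus strand): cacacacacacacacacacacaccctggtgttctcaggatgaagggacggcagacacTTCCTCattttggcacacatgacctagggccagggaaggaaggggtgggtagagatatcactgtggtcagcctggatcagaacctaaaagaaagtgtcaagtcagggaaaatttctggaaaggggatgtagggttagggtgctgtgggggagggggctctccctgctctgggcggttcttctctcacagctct
C3 (GRCm38.p6 chr17:57228137-57228386, minus strand): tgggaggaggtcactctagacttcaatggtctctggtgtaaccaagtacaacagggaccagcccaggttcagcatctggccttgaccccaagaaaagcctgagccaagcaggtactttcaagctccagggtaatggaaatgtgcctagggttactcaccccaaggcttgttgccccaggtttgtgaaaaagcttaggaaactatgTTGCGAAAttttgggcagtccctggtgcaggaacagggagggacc

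C1qb and C1qc each held a match to GAGGAA, at 30 to 25 and at 193 to 188 bases before the start, the latter on the opposite strand. Of all 32536 promoter windows of this length in the RefSeq set, 23.4% held this match. C3 held 1 match to TTGCNNAA, at 45 to 38 bases before the start, as did 9.57% of all windows. None of these 3 windows held a match to TTCNNNGAA (7.04% of all windows), GAAANNGAA (7.15%), or GGGANTTTC (0.944%). No matches overlapped in the 3 windows, and a match is a description of letters, not of binding.

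The question addressed by B6 minus NZW was which complement genes differ between a resistant and a sensitive strain measured in the same table. Of the 8 member probes tested, 3 were higher in B6 and none was lower: Cfb, C1qb, and C3. Cfb was detected in the 3 B6 mice only and entered the test through them. Among all 16756 probes tested, 18.8% passed the same threshold, an adjusted p below 0.05 from limma, which splits into 9.23% higher in B6 and 9.61% lower. In 5 of the 8 probes, Cfb among them, every B6 mouse lay above every NZW mouse, against 16.2% of all tested probes. The median difference of the 8 probes was 0.62 on the log2 scale, beside -0.04 over all tested probes. C3ar1, which encodes the receptor for the anaphylatoxin released from C3, was detected in none of the 6 mice (log2 4.68 to 4.98) and was not tested.

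**Figure D1:**
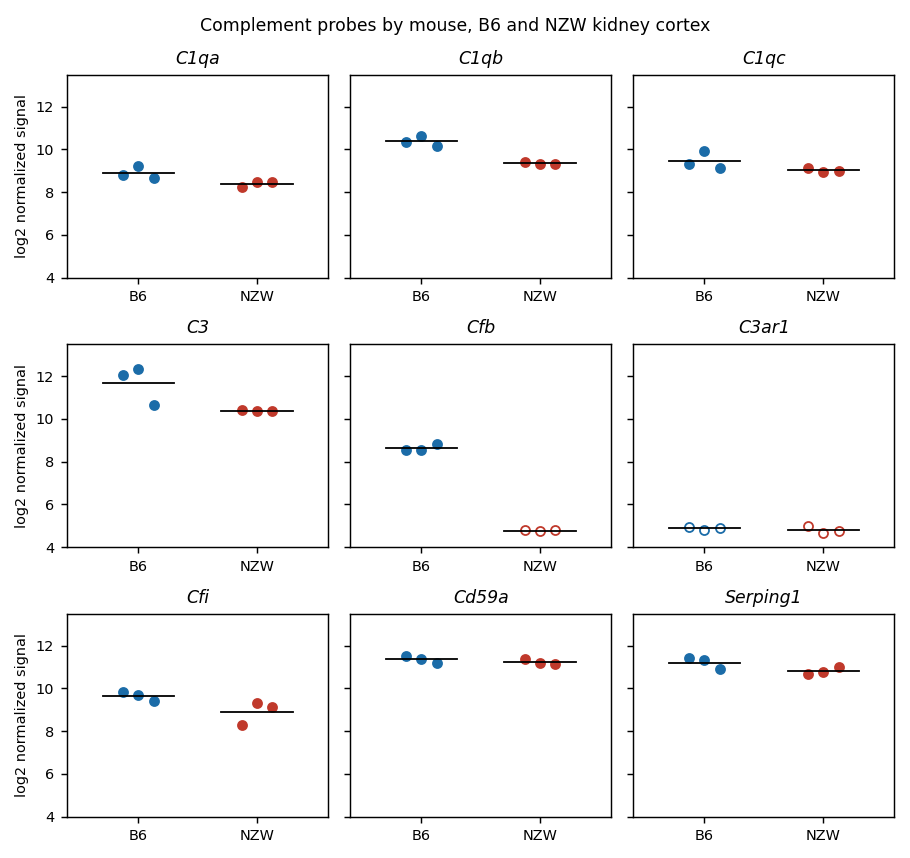
Log2 normalized signal of the 9 complement probes (y axis) in each of the 3 mice of B6 and NZW (x axis). Points are mice in the order 1, 2, 3, open points are mice in which the probe was not detected, and the line is the mean. Cfb is detected in B6 only, C1qb lies above 10 in B6 and below 9.5 in NZW, and 1 of the B6 mice lies near NZW for C3.

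Cfb, which encodes factor B, the protease subunit of the alternative pathway C3 convertase, separated the strains most widely. Its log2 signals were 8.56, 8.54, and 8.82 in B6 mice 1, 2, and 3, and 4.79, 4.75, and 4.80 in NZW. It was detected in 3 of 3 B6 mice and in no NZW mouse. As deposited, the signals were 452, 454, and 460 in B6 and 81.7, 78.2, and 75.4 in NZW, the latter at the level of the negative controls. Against the lowest signals that counted as detected in the NZW mice, expression in B6 (mean 8.64) was at least 9.95-fold higher than in NZW (measured mean 4.78). Cfb entered the test through the 3 B6 mice alone, so its call sets B6 against background in NZW, and no p is given. Each gene was read by 1 probe, so a strain difference in the probed sequence and one in the amount of transcript cannot be told apart.

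The 3 genes of C1q, the recognition molecule of the classical pathway, are neighbours on chromosome 4. C1qb, which encodes the B chain, measured 10.34, 10.61, and 10.17 in B6 and 9.41, 9.31, and 9.34 in NZW. It was 2.03-fold higher in B6, a log2 difference of 1.02 (SE 0.13, adjusted p = 0.000837).
C1qa, which encodes the A chain, measured 8.78, 9.22, and 8.65 in B6 and 8.23, 8.46, and 8.48 in NZW. The strains did not overlap, but the log2 difference of 0.50 (SE 0.16) did not pass the threshold (adjusted p = 0.0668). C1qc, which encodes the C chain, measured 9.32, 9.93, and 9.12 in B6 and 9.12, 8.96, and 9.0 in NZW. The lowest B6 mouse was level with the highest NZW mouse, and the log2 difference was 0.43 (95% interval -0.02 to 0.88, adjusted p = 0.17). In all 3 genes the highest mouse was B6 mouse 2 and the lowest of B6 was mouse 3. The differences between the 3 chains were not tested against each other.

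C3 is the central component on which all pathways converge. It measured 12.06, 12.32, and 10.65 in B6 and 10.41, 10.37, and 10.36 in NZW. Mice 1 and 2 of B6 stood well above NZW, whereas mouse 3 of B6 lay 0.24 above the highest NZW mouse. The mean was 2.46-fold higher in B6, a log2 difference of 1.30 (SE 0.37, adjusted p = 0.0413). This call rested on few mice: without B6 mouse 3 the difference was 1.81 (adjusted p = 0.000138), and without any 1 of the other 5 mice it was 0.98 to 1.32 and did not pass (adjusted p of 0.0874 to 0.130). It was also lost when both tables were normalized together (adjusted p = 0.113), when no dim probes were left out (adjusted p = 0.12), and by the methods' t-test (adjusted p = 0.207).

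None of the 3 regulators passed. Cfi encodes factor I, the protease that inactivates the active fragments of C3 and C4. It measured 9.85, 9.67, and 9.41 in B6 and 8.30, 9.30, and 9.12 in NZW, a log2 difference of 0.74 (SE 0.25, adjusted p = 0.0731). All B6 mice lay above all NZW mice, with NZW mouse 1 far below the rest, and without NZW mouse 2 the difference was 0.93 and passed (adjusted p = 0.039). Serping1, which encodes the C1 inhibitor that stops the proteases bound to C1q, measured 11.41, 11.32, and 10.89 in B6 and 10.68, 10.75, and 10.998 in NZW. The strains overlapped, and the log2 difference was 0.40 (SE 0.16, adjusted p = 0.126), or 0.56 (adjusted p = 0.0436) without B6 mouse 3. Cd59a encodes the membrane protein CD59, which blocks the membrane attack complex. It measured 11.54, 11.37, and 11.17 in B6 and 11.40, 11.20, and 11.14 in NZW. The difference was 0.11 (95% interval -0.19 to 0.41, adjusted p = 0.606), so a difference above 0.41 in either direction lies outside the interval.

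Lists of macrophage genes and of tubule injury and acute phase genes were read beside these values. Of 16 tested probes of a macrophage list (14 genes), 2 were higher in B6, Fcer1g and Ms4a7, and none was lower. Fcer1g entered the test through the B6 mice alone. For this list and the next, the shares over all tested probes were 9.23% higher in B6 and 9.61% lower. The median difference of the 16 probes was 0.46, beside -0.04 over all tested probes. The summed signal of the 14 genes was 3867 to 6031 in B6 and 2166 to 2825 in NZW. Fcer1g was detected in B6 alone (at least 29.2-fold above NZW), and without it the sum was 2537 to 5130 in B6 and 2139 to 2798 in NZW, with the strains overlapping. Of the macrophage markers, Csf1r (-0.27 and -0.13) and Cd68 (0.75 and 0.71) did not pass the test in any of their 4 probes. Emr1 did not pass either (0.49, adjusted p = 0.0502). Of 10 tested probes of 9 genes of tubule injury and the acute phase, 4 were higher in B6 (Lcn2, Saa1, Spp1, and Timp1) and 2 were lower. The lower ones were Havcr1, which encodes the injury marker KIM-1 of the proximal tubule (-2.77, adjusted p = 0.0134), and Krt18, a keratin (-0.71, adjusted p = 0.00973). The summed signal of the 9 genes was 17057, 20448, and 8920 in B6 mice 1, 2, and 3, and 7429 to 9307 in NZW, so that B6 mouse 3 had the lowest sum of B6 here as it did for C1qa, C1qb, C1qc, and C3. The part of either list in the complement values was not tested, and in whole cortex fewer cells of a type and less RNA per cell cannot be told apart.

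In the other table, BALB/C (resistant) was compared with DBA1 and with 129/svj (both sensitive). None of the 5 member probes passed the threshold in BALB/C minus DBA1, where 5.75% of all 15818 tested probes passed. At an unadjusted p below 0.05 there were 4, which ranked 1786 to 2614 by p among those 15818 probes. None passed in BALB/C minus 129/svj, with 4.82% of all probes, or in DBA1 minus 129/svj, with 4.48%. Unadjusted, there was 1 in the former (Serping1, ranked 1475 by p) and 0 in the latter. In 4 of the 5 probes (all but C3) every BALB/C mouse lay below every DBA1 mouse, as did 12.4% of all probes tested, and the median difference of the 5 was -1.02, beside 0.01 over all probes. Serping1 alone lay lower in every BALB/C mouse than in every 129/svj mouse, as did 10.2% of all probes.

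**Figure D2:**
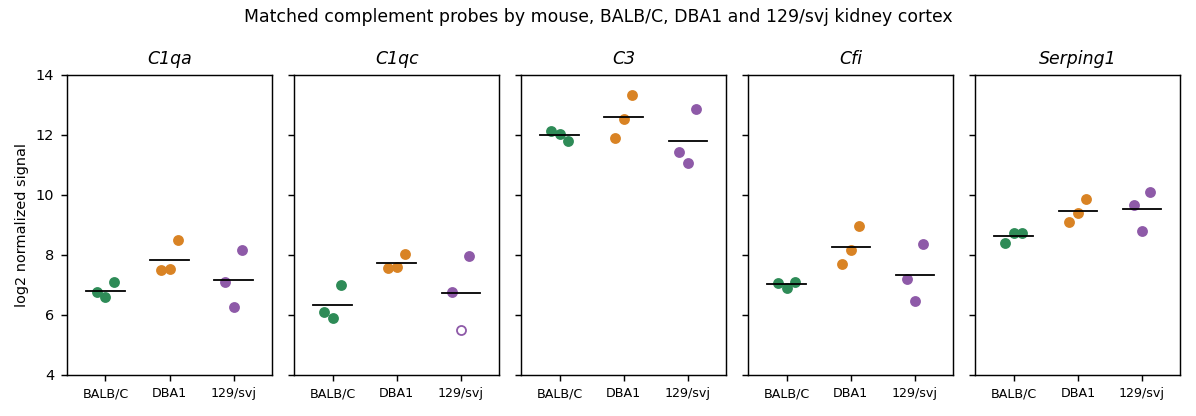
Log2 normalized signal of the 5 matched complement probes (y axis) in each of the 3 mice of BALB/C, DBA1, and 129/svj (x axis). Points are mice in the order 1, 2, 3, the open point is a mouse in which the probe was not detected, and the line is the mean. BALB/C mice lie close together except for C1qc, and the third mouse of DBA1 and of 129/svj is the highest of its strain in all 5 panels.

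C1qa measured 6.75, 6.59, and 7.08 in BALB/C, 7.47, 7.53, and 8.48 in DBA1, and 7.07, 6.25, and 8.17 in 129/svj. BALB/C was lower than DBA1 by 1.02 on the log2 scale (95% interval of the difference -1.99 to -0.06, adjusted p = 0.244). C1qc measured 6.10, 5.91, and 7.0 in BALB/C, 7.57, 7.58, and 8.02 in DBA1, and 6.75, 5.49, and 7.96 in 129/svj.
For C1qc, mouse 2 of 129/svj was not detected, and that strain overlapped both of the others. The difference from DBA1 was -1.38 (95% interval -2.55 to -0.21, adjusted p = 0.184).

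C3 was bright in all 9 mice of this table. It measured 12.12, 12.00, and 11.80 in BALB/C, 11.89, 12.51, and 13.32 in DBA1, and 11.42, 11.06, and 12.86 in 129/svj. The order of the means was DBA1, BALB/C, and 129/svj, and no neighbours in it differed beyond their spread. BALB/C minus DBA1 was -0.60 (95% interval -1.61 to 0.42, adjusted p = 0.558), and BALB/C minus 129/svj was 0.20 (95% interval -0.82 to 1.21, adjusted p = 0.903).

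Of the regulators, Cfi measured 7.05, 6.90, and 7.09 in BALB/C, 7.70, 8.15, and 8.96 in DBA1, and 7.21, 6.44, and 8.34 in 129/svj. BALB/C lay below DBA1 without overlap, by -1.26 (95% interval -2.24 to -0.28, adjusted p = 0.148), and 129/svj overlapped both. Serping1 measured 8.40, 8.73, and 8.73 in BALB/C, 9.08, 9.38, and 9.87 in DBA1, and 9.65, 8.79, and 10.08 in 129/svj. Its difference was -0.82 from DBA1 (95% interval -1.52 to -0.13, adjusted p = 0.184) and -0.89 from 129/svj (95% interval -1.58 to -0.19, adjusted p = 0.187). Without mouse 2 of 129/svj, the latter was -1.24 and passed the threshold (adjusted p = 0.0283). C1qa, C1qc, C3, and Cfi were higher in the mean of DBA1 than of 129/svj by 0.66 to 0.99, with adjusted p-values of 0.39 to 0.612, and Serping1 differed by -0.06.

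In DBA1, 129/svj, and B6 the 5 probes shared extreme mice. Mouse 3 of DBA1 and mouse 3 of 129/svj were the highest of their strains in 5 of 5 probes, and mouse 1 of DBA1, mouse 2 of 129/svj, and mouse 3 of B6 were the lowest in 5 of 5. In NZW and BALB/C no mouse was the highest or the lowest in more than 3 of the 5. Whether such shared extremes were particular to these probes was not tested. Over all tested probes, deviations from the strain mean correlated at 0.39 between mouse 3 of DBA1 and mouse 3 of 129/svj. Between mouse 1 of DBA1 and mouse 2 of 129/svj they correlated at 0.34. The share of all probes with the same extreme mice was not counted. Within 129/svj the highest mouse exceeded the lowest by 3.77-fold for C1qa, 5.57-fold for C1qc, 3.48-fold for C3, 3.72-fold for Cfi, and 2.44-fold for Serping1. Within BALB/C the same ratios were 1.14-fold to 2.14-fold, and within DBA1 1.37-fold to 2.69-fold. For C1qc the ratio was larger in BALB/C (2.14-fold) than in DBA1 (1.37-fold). Cd14, a receptor of monocytes and macrophages, measured 7.63, 7.07, and 9.46 in 129/svj, 9.04, 9.77, and 10.37 in DBA1, and 7.11, 6.68, and 7.03 in BALB/C. Like the complement probes, it was highest in mouse 3 of DBA1 and of 129/svj. Cx3cr1, another macrophage gene, measured 6.21, 6.38, and 5.53 in DBA1, so mouse 3 was the lowest there. In 129/svj it measured 5.51, 4.96, and 5.72, with mouse 3 the highest. Cx3cr1 was detected in 2 mice of DBA1, 1 of 129/svj, and none of BALB/C. Timp1, an inhibitor of metalloproteinases that injured tubules release, measured 6.46, 6.27, and 7.95 in 129/svj and 6.76, 7.90, and 7.91 in DBA1. Only 2 genes of the macrophage list were tested in this table, with summed signals of 138 to 176 in BALB/C, 601 to 1373 in DBA1, and 165 to 757 in 129/svj. The part of these genes in the complement values was not tested.

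**Figure D3:**
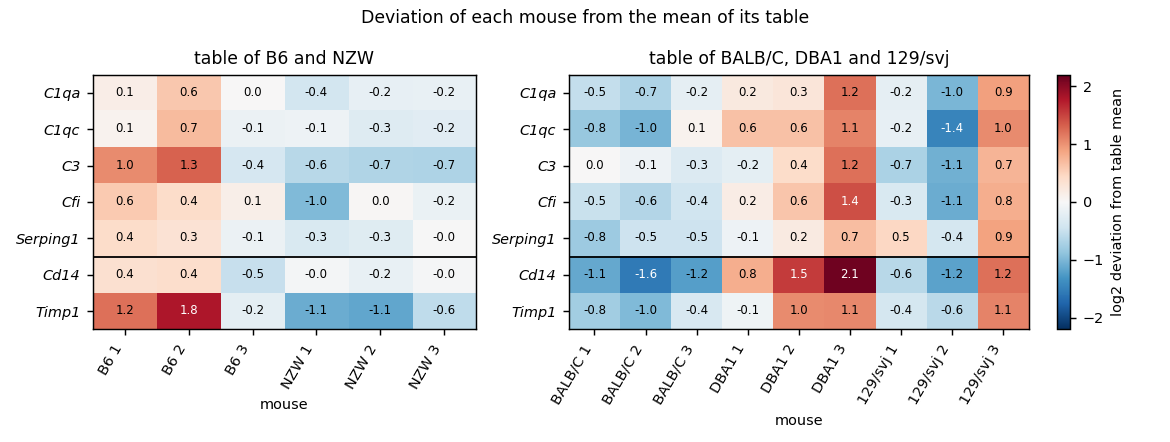
Deviation of each mouse (x axis) from the mean of all mice of its table, on the log2 scale (colour and printed value), for the 5 matched complement probes and, below the line, Cd14 and Timp1 (y axis). The third mouse of DBA1 and of 129/svj is above the mean in all 7 rows, and the second mouse of 129/svj is below it in all 7.

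As a description of the likeness between members, the mean of the Pearson correlations within the tables (9 and 6 mice) was 0.69 to 0.88 for the pairs of C1qa, C1qc, C3, Cfi, and Serping1 that were compared. The correlations ran over the mice of all strains of a table, so they mix differences between strains with the spread within strains. Mice of a table also share normalization. Of the 6896 probes tested in all 15 mice, those most like the mean of C1qa and C1qc were Mfap4 (0.93), Col1a1 (0.92), and Cd44 (0.92), which encode a microfibril protein, a collagen chain, and a hyaluronan receptor. For C3 they were 2010004N17Rik, Ext1, and Mfap4 (0.90 each). For Cfi they were Lbp, an acute phase protein that binds lipopolysaccharide (0.93), Mfge8 (0.92), and E030018N11Rik (0.91), and for Serping1 Cpe (0.91), Leprot (0.89), and Timp1 (0.88).

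Resistant strains were then compared with sensitive strains over all 15 mice, as the mean of the differences within the tables. None of the 5 probes passed (0 also at an unadjusted p below 0.05), where 13.4% of 6896 probes did. The differences were -0.10 for C1qa (95% interval -0.62 to 0.42), -0.23 for C1qc (-0.86 to 0.40), 0.55 for C3 (-0.10 to 1.20), -0.03 for Cfi (-0.59 to 0.54), and -0.23 for Serping1 (-0.61 to 0.16). The adjusted p-values were 0.287 to 0.969.

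**Figure D4:**
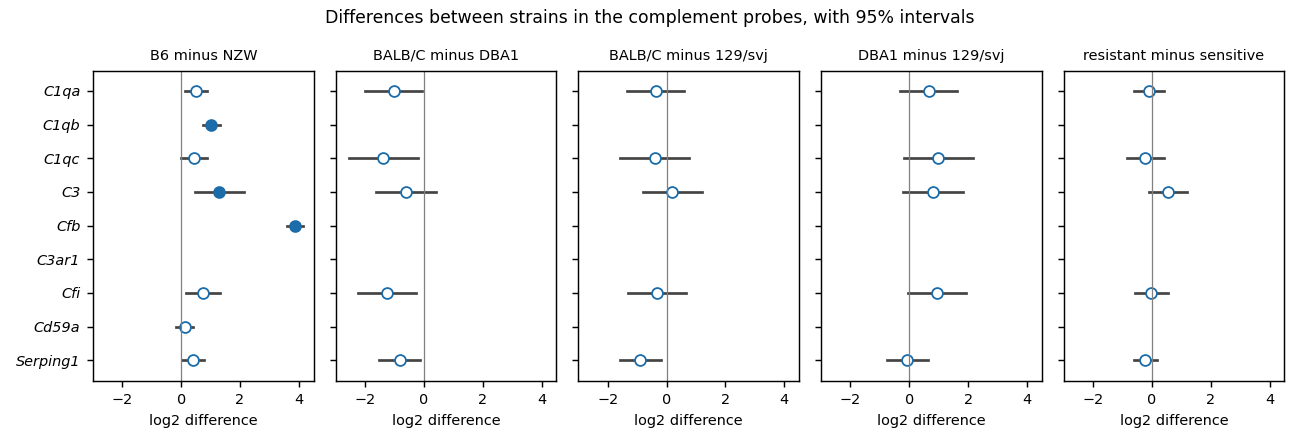
Log2 difference (x axis) of each complement probe (y axis) in 5 comparisons of strains, with 95% intervals from limma. Filled points passed an adjusted p below 0.05, and a missing point was not tested or not matched in that comparison. The points lie above 0 in B6 minus NZW and below 0 in BALB/C minus DBA1.

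The differences between resistant and sensitive strains were then compared between the tables, where 1 of 5 probes passed. In the fit of all 15 mice, the difference of BALB/C from the mean of DBA1 and 129/svj was -0.69 for C1qa, -0.89 for C1qc, -0.20 for C3, -0.79 for Cfi, and -0.85 for Serping1. Serping1 passed here (SE 0.24, adjusted p = 0.0358), 1 of 5 probes where 8.53% of all probes passed, and the other 4 did not (adjusted p of 0.2 to 0.849). Its call was lost in 7 of 15 fits without 1 mouse (129/svj 1 or 3, BALB/C 1, 2, or 3, DBA1 2 or 3), with values of -1.03 to -0.71 over the 15 fits and an adjusted p of up to 0.148. The difference of B6 from NZW was above 0 in each of these genes. The second subtracted from the first was -1.25 for Serping1 (SE 0.36, adjusted p = 0.0344), 1 of the 5 probes to pass, where 11.8% of all probes passed and 7.13% in this direction. For the other 4 it was -1.19 to -1.53, with adjusted p-values of 0.078 to 0.193 and an unadjusted p below 0.05 in each. These 4 ranked 987 to 1499 by p among the 6896 probes tested. The result for Serping1 was lost in 8 of 15 fits that left out 1 mouse (129/svj 1, B6 1 or 2, BALB/C 1, 2, or 3, NZW 1 or 2), with an adjusted p of up to 0.0946. Without 129/svj mouse 2, C1qa, C1qc, and Cfi passed as well (adjusted p of 0.0195 to 0.0288), and without B6 mouse 3, C3 did (-2.01, adjusted p = 0.0337). The strains of each side were in different tables, so the table and the strains compared cannot be told apart.

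Of the other genes of the cascade, taken from a list of complement genes by pathway, 42 genes had probes in the table of B6 and NZW, and 20 probes of 16 genes were tested. Of these probes, 7 were higher in B6 and 5 were lower, where 9.23% of all tested probes were higher and 9.61% lower, and the median difference was 0.15, beside -0.04 over all probes. The classical pathway had 1 of 4 tested probes higher and 1 lower, the lectin pathway had 2 of 2 lower, the alternative pathway had 1 of 2 higher, the terminal pathway had 1 of 3 lower, the receptors had 2 of 3 higher and 1 lower, and the regulators had 3 of 6 higher. These counts include 1 of the 2 Cpn1 probes (regulators, higher) and Masp2 (lectin pathway, lower). Each was detected only in the strain where it was high and entered the test through it, so its call sets that strain against background. Of the smaller calls, that of C8g (terminal pathway) was lost in 5 and that of C1qbp (receptors) in 3 of the 6 fits without 1 mouse, with an adjusted p of up to 0.109 and 0.0807.

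C2, which encodes the protease that factor B resembles and whose gene lies beside Cfb on chromosome 17, measured 11.63, 11.75, and 11.64 in B6 and 8.85, 9.34, and 9.37 in NZW. It was 5.61-fold higher in B6 (log2 difference 2.49, SE 0.15, adjusted p = 8.18e-06). So the neighbouring genes of the convertase proteases were both higher in B6 in every mouse. C4a, which is related to the gene of C4, the partner of C2 in the classical convertase, ran the other way, with differences of -1.30 (adjusted p = 0.0441), -0.83 (adjusted p = 0.137), and -0.47 (adjusted p = 0.209) in its 3 probes. Its call was lost in 5 of 6 fits without 1 mouse, all but that without B6 mouse 2 (adjusted p of up to 0.133), and probes of C4a and of its close copy C4b may share targets.

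**Figure D5:**
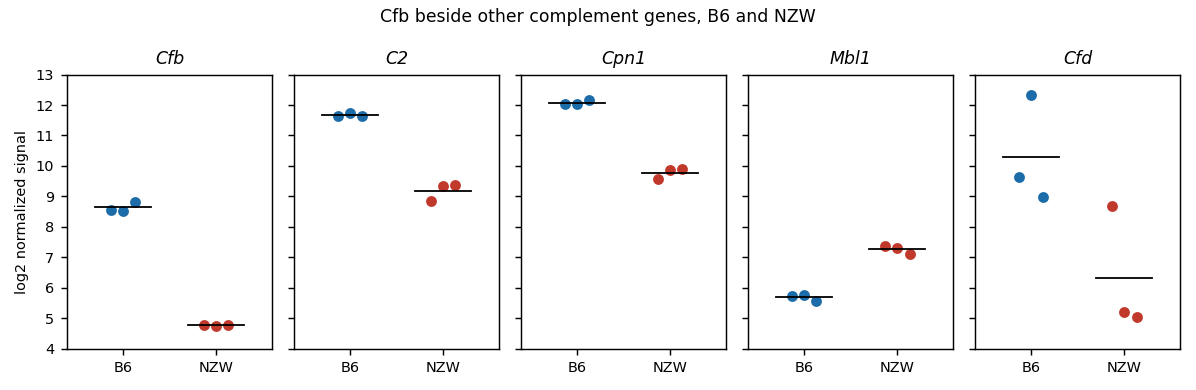
Log2 normalized signal (y axis) of Cfb and of 4 other complement genes in each of the 3 mice of B6 and NZW (x axis), with the mean as a line. Cfb, C2, and Cpn1 are higher in every B6 mouse and Mbl1 is lower, and for Cfd NZW mouse 1 lies close to the B6 mice.

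Cpn1, a subunit of the carboxypeptidase that inactivates anaphylatoxins, was 4.93-fold higher in B6 in its brighter probe (12.05, 12.02, and 12.17 against 9.56, 9.87, and 9.90, adjusted p = 4.22e-06). Its other probe was detected in 3 B6 mice and in no NZW mouse, at least 2.45-fold higher in B6. That probe entered the test through the B6 mice alone, so no p is given. Cfd, which encodes factor D, the protease that cleaves factor B, measured 9.63, 12.31, and 8.97 in B6 and 8.69, 5.21, and 5.06 in NZW, where it was detected in mouse 1 alone. Its difference of 3.99, which thus includes 2 mice at background, (SE 1.08, adjusted p = 0.0348) passed but was lost without any 1 of B6 mouse 1, B6 mouse 2, NZW mouse 2, and NZW mouse 3 (2.98 to 4.33, adjusted p of up to 0.115).
Cd93, named as a C1q receptor in older work, was higher in B6 in both of its probes (1.09, adjusted p = 0.000249, and 0.60, adjusted p = 0.00711). Cd59b, the neighbour of Cd59a on chromosome 2 with the same role, was higher in B6 by 0.74 (adjusted p = 0.00944), whereas Cd59a did not pass. The call of Cd59b was lost with the methods' t-test (adjusted p = 0.0756), and that of the dimmer Cd93 probe with joint normalization (adjusted p = 0.184).

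Of 8 lectin pathway genes on the table, 2 were tested, and both were lower in B6. Mbl1, a mannose-binding lectin, measured 5.74, 5.76, and 5.55 in B6 and 7.39, 7.30, and 7.12 in NZW (log2 difference -1.58, adjusted p = 3.07e-05). It also passed in resistant minus sensitive strains (adjusted p = 5.37e-06), but it was detected in 1 of the 9 mice of the other table, so that no size is given for that difference. Masp2, which encodes the protease of that pathway, was detected by 1 probe, in 3 NZW mice and in no B6 mouse, at least 2.57-fold lower in B6. This probe entered the test through the NZW mice alone, so no p is given. The other probes of Masp2 were detected in no B6 or NZW mouse. The detected probe passed between resistant and sensitive strains as well, but again through the NZW mice, so no p is given there either. In the other table it was detected in 2 of the 9 mice, where the means of BALB/C, DBA1, and 129/svj were 5.52, 5.49, and 5.44. Fcna, a ficolin, was not tested. It measured 6.40, 8.68, and 4.82 in B6, with detection in 2 of the 3 mice, and was detected in none of the NZW mice.

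Over all 15 mice, 10 probes of 8 other complement genes were tested between resistant and sensitive strains, and 3 were higher and 3 lower, where 13.4% of all 6896 tested probes passed in either direction. These counts include Masp2 and the dimmer Cpn1 probe, each tested because of the mice of 1 strain. Beside Mbl1 and Masp2, C8g, a chain of the terminal component C8, was lower in resistant strains by -0.86 (adjusted p = 0.0093). It measured 6.94, 6.84, and 7.38 in BALB/C, 9.05, 8.30, and 7.34 in DBA1, and 8.70, 8.68, and 8.12 in 129/svj. The highest BALB/C mouse thus lay just above the lowest DBA1 mouse and below every 129/svj mouse. The brighter probe of Cpn1 (0.83, adjusted p = 2.54e-05) and 1 of 2 Cd93 probes (0.74, adjusted p = 0.000519) were higher in resistant strains. The other Cpn1 probe passed too, but beside the 3 B6 mice it was detected in 1 mouse, of 129/svj. It was tested because of the B6 mice, so no size or p is given. For Cpn1 the tables differed, since its brighter probe was lower in BALB/C than in 129/svj by -1.67 (adjusted p = 0.000146). The Cd93 probe that passed was higher in BALB/C than in DBA1 (0.93, adjusted p = 0.0329). It was not higher in BALB/C than in 129/svj (-0.13, adjusted p = 0.858). With strain as a random block, which lets mice of a strain resemble each other, C8g, Cpn1, Cd93, and Masp2 no longer passed (adjusted p of 0.105 to 0.693).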

How the data were processed

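Signals and detection were measured in kidney cortex RNA. The authors deposited scanner intensities without normalization, each with a detection p-value against negative controls and a bead number, in 2 tables made with BeadStudio, per the series description. Other steps, the chip of each table, and a genome build are not given in the sources used here. Background was removed by limma's normexp, with negative controls inferred from detection (offset 16). Values were quantile normalized within each table and log2 transformed, and repeat arrays of a mouse were averaged. A probe was detected at a p of up to 0.05, was tested if detected in 3 or more mice, and was fitted with lmFit and eBayes (limma 3.58.1, R 4.3.3), with 1 coefficient per strain and Benjamini-Hochberg adjustment over all probes tested. Fits over all 15 mice used 19886 probe pairs with a search key unique in both tables, of which 6896 were tested. Files were read with Python 3.11.15 and pandas 2.3.3, and figures were drawn with matplotlib 3.10.9.

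Members and gene lists were chosen with earlier results of these data known. Named were every member, other complement genes past the threshold between resistant and sensitive strains or with a log2 difference of 1 or more in B6 minus NZW, those a role needed, and the 3 probes most alike. The labels do not say that mice came from separate litters or cages, so p-values measure the spread between these mice. Same-numbered mice of different strains correlated at -0.07 to 0.01 (3 pairs) and -0.26 to 0.39 (9 pairs), so numbers were not taken as pairs. The procedure was tested on simulated data. Alternatives covered background, normalization, filters, repeat arrays, replicate number, strain, the t-test, and each mouse left out.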

Additional observations from a re-analysis of the deposited data

Results flagged for a closer look

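The difference between resistant and sensitive strains was unlike in the tables for Serping1: BALB/C minus the mean of DBA1 and 129/svj, less B6 minus NZW, came to -1.25 as a log2 value, with an SE of 0.36 and an adjusted p of 0.0344 by limma. Serping1 was lower in each BALB/C mouse (8.40 to 8.73) than in each mouse of DBA1 and 129/svj (8.79 to 10.08), and B6 and NZW overlapped. Over its alternatives, the adjusted p was 0.0237 to 0.0892, and leaving out 1 mouse gave -1.43 to -1.11 with an adjusted p of 0.00308 to 0.0946. The direction was not particular to Serping1, since C1qa (-1.19), C1qc (-1.32), C3 (-1.50), and Cfi (-1.53) lay the same way without passing. Of all 6896 probes tested, 11.8% passed. The table and the strains compared cannot be told apart.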

How the results depend on the processing

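The number of arrays limits the precision, and signals near background are compressed by the offset. In B6 minus NZW, C1qb passed in each of the 9 alternatives in which it was tested, with differences of 0.86 to 1.02, and without any 1 mouse. Cfb passed in its 8 alternatives, but it was not detected in NZW and entered through B6. Its calls thus set B6 against background in each of them and do not measure its stability, and no range is given for its difference. Without 1 B6 mouse, Cfb had too few detected mice to be tested. The 3 members called became 5 with an offset of 50 or without background correction (C1qa and Cfi were added), 0 with joint normalization, which leaves out the unmatched Cfb and C1qb, and 1 to 3 without 1 mouse. For BALB/C minus DBA1, the 0 called became 4 with the methods' t-test at an unadjusted P, which 2728 of all 15818 probes passed. The count stayed 0 without 1 mouse. For BALB/C minus 129/svj, leaving out 1 mouse gave 0 to 1. DBA1 minus 129/svj and resistant minus sensitive gave 0 called in every alternative run.

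For the difference between the tables, the 1 call became 2 without background correction, 0 with 75th percentile scaling, joint normalization, or no filter on dim probes, 3 with the replicate number as a block, and 0 to 4 without 1 mouse. The cause was not tested. The replicate block moved no other count of members called by over 1.5 times. Scaling by the 75th percentile moved the median of all probes in B6 minus NZW from -0.04 to -0.13, and Cd59a to -0.069. Resistant minus sensitive changed sign without background correction for C1qa (0.00068), and for Cfi with an offset of 50 (0.0055) and without background correction (0.067). Leaving out 1 mouse moved values across 0 in BALB/C minus 129/svj for C1qa (-0.82 to 0.14), C1qc (-1.02 to 0.22), C3 (-0.16 to 0.74), and Cfi (-0.76 to 0.19), in DBA1 minus 129/svj for Serping1 (-0.42 to 0.22), and in resistant minus sensitive for C1qa (-0.21 to 0.027) and Cfi (-0.18 to 0.10). The fits of Serping1 in BALB/C minus the mean of DBA1 and 129/svj without 1 mouse were chosen after seeing the data. The t-test was not run for the comparisons over all 15 mice.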
